A study of Homo sapiens with 3 samples.

Results

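hsa-miR-7-5p and hsa-miR-3529-3p, written below as miR-7-5p and miR-3529-3p, are 2 of the 2588 human mature miRNAs listed for SK-MEL-2, an established melanoma cell line. They were chosen by name, because 1 of the hairpins that make miR-7-5p, MIR7-2, lies on the opposite strand of MIR3529. The study exposed SK-MEL-2 cells to a nonthermal plasma jet (weakly ionised gas blown onto the culture without heating it) for 3 min or 5 min, then kept them for 2 more days, and left control cells untreated. All cells were grown in RPMI-1640 with 10% FBS and antibiotics, and the labels place every library on Day 2. The question in the series title is how such plasma suppresses melanoma cell growth. Each group was 1 small-RNA library, so the values below have no replicate check, no test was possible, and every comparison is between libraries. The intervals are exact 95% intervals for counting error only.

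miR-7 is conserved from flies to humans and is best known from neurons and the endocrine pancreas. Its 5p arm is the strand loaded into Argonaute, and among its known human targets are the receptor EGFR and the insulin receptor substrates IRS1 and IRS2. The circular RNA CDR1as holds many miR-7 sites, and in mammals the long noncoding RNA Cyrano directs miR-7 for degradation. In melanoma cells miR-7-5p has been studied as a repressor of growth and migration. miR-3529 was annotated later, from sequencing, and is far less studied.

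The mature sequences are shown because they are what makes the pair. Capitals mark the seed, bases 2 to 8 from the 5′ end, and both sequences are from RefSeq (GRCh38.p14).
miR-7-5p: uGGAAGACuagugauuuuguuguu
miR-3529-3p: aACAACAAaaucacuagucuucca
Each has 24 bases, and each is the reverse complement of the other over all 24. Their seeds, GGAAGAC and ACAACAA, were carried by no other listed miRNA among the 2281 with a RefSeq sequence. Both have 8 G or C bases, 33.3%, and 20 of the 206 measured miRNAs with a sequence had a G and C content that low or lower.

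miR-7-5p comes from 3 hairpins, so its counts cannot be assigned to 1 locus. MIR7-1 (chr9:83969748-83969857, minus strand) lies within HNRNPK, in an intron of 6 of the 7 annotated transcripts that span it. MIR7-3 (chr19:4770670-4770779, plus strand) lies in introns of the long noncoding RNA gene MIR7-3HG in all 9 spanning transcripts. MIR7-2 (chr15:88611825-88611934, plus strand) overlaps no annotated gene other than a miRNA, and MIR3529 (chr15:88611847-88611924, minus strand) lies inside it over all 78 of its bases. The following hairpins show miR-7-5p, and for MIR7-2 also miR-7-2-3p, in capitals.
MIR7-2: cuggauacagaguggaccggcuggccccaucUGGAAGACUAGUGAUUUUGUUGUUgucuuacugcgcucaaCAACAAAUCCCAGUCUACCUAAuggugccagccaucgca
MIR7-3: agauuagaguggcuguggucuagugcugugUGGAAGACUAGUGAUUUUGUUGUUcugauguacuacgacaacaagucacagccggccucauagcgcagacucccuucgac
Within MIR7-2, miR-7-5p takes bases 32 to 55, at chr15:88611856-88611879. miR-3529-3p is annotated at the same 24 positions on the minus strand. Whether the submitters counted reads by strand is not given in the sources used here, and without strand the reads of MIR7-2 and MIR3529 cannot be told apart. miR-7-5p has the same 24 bases in its 3 hairpins, so its reads from any of them also match this site. If strand was not used, both levels are therefore uncertain as a whole, and so is the division between them.

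Totals were 1045482 counts in the control library, 966943 in that of 3 min plasma and 615645 in that of 5 min. A miRNA is called measured where its mean over the 3 libraries was at least 20 counts, which 231 were. Ratios between libraries use counts scaled by TMM, a method that sets most miRNAs to no change. Values are relative to each library, so fewer cells and less RNA per cell cannot be told apart. Of 6 melanocytic miRNAs, miR-204-5p had 2608 counts in control, 2535 after 3 min and 1257 after 5 min. miR-211-5p had 128, 97 and 65 in that order, and the 4 of the miR-506 to miR-514 cluster on the list had none. After scaling, the log2 ratios of miR-204-5p to control were 0.09 after 3 min and -0.30 after 5 min. Those of miR-211-5p were -0.27 (-0.67 to 0.12) and -0.22 (-0.68 to 0.22). Of 6 neural and neuroendocrine miRNAs, miR-375, miR-124-3p and miR-153-3p were listed at 0 in all 3 libraries, while miR-9-5p had 16885, 14199 and 11140 counts. miR-128-3p had 1444, 1540 and 564 and miR-129-5p 257, 232 and 100, in the same order of libraries. The last 2 were at least 1.5-fold lower after 5 min than in control, as were 11.7% of all measured miRNAs. The log2 ratios of these 2 were -0.60 and -0.61, and miR-9-5p had 0.15. The median of the 3 was -0.60. The part of this in the values of miR-7-5p below was not tested.

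miR-7-5p was abundant in the untreated cells and lower after plasma, further after the longer exposure. It had 14408 counts in control, 10701 after 3 min and 5489 after 5 min. As a share of the library this was 1.38% (1.36 to 1.401) in control, 1.11% (1.09 to 1.13) after 3 min and 0.892% (0.868 to 0.915) after 5 min. Its level on the TMM-scaled CPM scale (counts scaled to a common library size) was 13775, 11164 and 8842 CPM in that order. The 3 counting intervals did not overlap, and the level was lower at each longer exposure. Its place among all listed miRNAs was 17th, 18th and 20th in the same order.

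miR-3529-3p stood just above it in control and was lower after plasma by a smaller margin. It had 14868 counts in control, 12149 after 3 min and 8019 after 5 min, or 1.42%, 1.26% and 1.303% of the libraries. The TMM-scaled levels were 14214 CPM (13988 to 14443), 12675 CPM (12452 to 12901) and 12918 CPM (12638 to 13202). Both plasma libraries were below control, and their intervals overlapped each other. Its place was 16th in control and 17th after either exposure. In control its interval overlapped that of miR-7-5p, which was 13552 to 13999.8 CPM. Adapter ligation favours some RNA ends, so levels of different miRNAs in a library are not molar amounts.

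**Figure D1:**
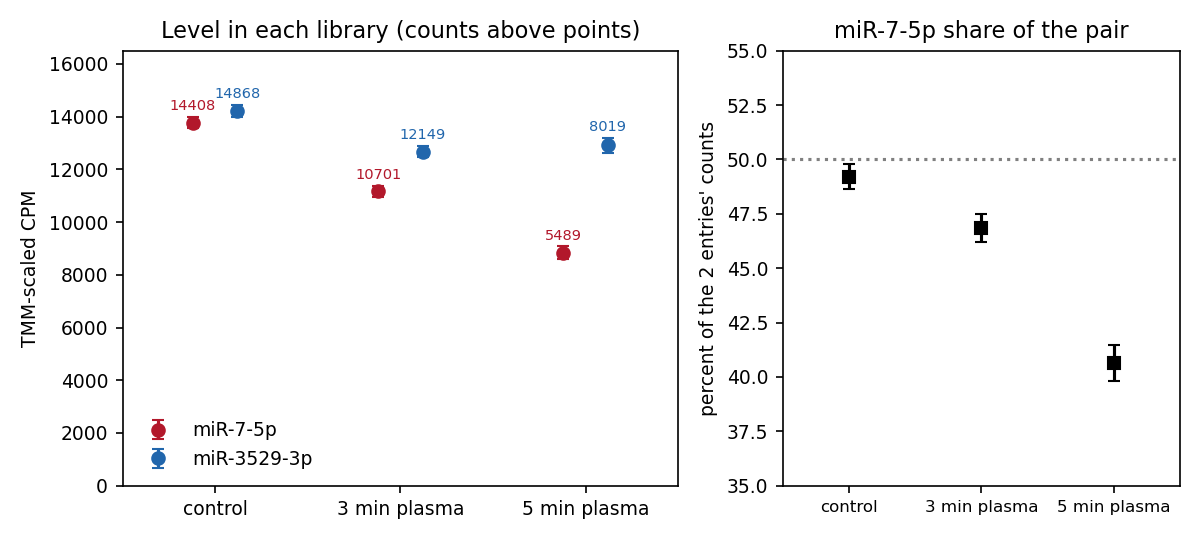
Left, TMM-scaled CPM of miR-7-5p (red) and miR-3529-3p (blue) in each library, with the raw counts above the points; right, the share of miR-7-5p in the summed counts of both, on an axis from 35 to 55%. Bars are exact 95% counting intervals and each point is 1 library. The red points are lower at each longer exposure (13775, 11164 and 8842 CPM) while the blue ones stay between 12675 and 14214 CPM, and the share is 49.2%, 46.8% and 40.6%.

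After 5 min of plasma, miR-7-5p was 1.56-fold lower than in control (1.51 to 1.61), a log2 ratio of -0.64 (-0.68 to -0.59). At the control level the 5 min library would have held 8551 counts of it, and it held 5489. After 5 min, 11.7% of the measured miRNAs were at least 1.5-fold lower, 3.46% at least 2-fold lower and 17.3% at least 1.5-fold higher, so passing 1.5-fold was not rare. Among abundant miRNAs its ratio stood low. The 58 miRNAs that averaged 1000 counts or more are called abundant here, and 3 of them had a lower 5 min ratio: miR-125b-1-3p (log2 ratio -1.10), miR-328-3p (-0.85) and miR-27a-5p (-0.66). These averaged 2267, 1250 and 1086 counts over the libraries, against 10199 for miR-7-5p. The quartiles of the 58 were -0.29 and 0.14 on the log2 scale.

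After 3 min, miR-7-5p was 1.23-fold lower than in control (1.203 to 1.27), with a log2 ratio of -0.30 (-0.34 to -0.27). This did not reach 1.5-fold, which 5.19% of measured miRNAs did on the lower side and 6.93% on the higher side. Of the 58 abundant miRNAs, 2 had a lower 3 min ratio. Between the exposures, miR-7-5p was 1.26-fold lower after 5 min than after 3 min (1.22 to 1.305). On the lower side of 5 min over 3 min, 8.66% of measured miRNAs reached 1.5-fold, and 9 of the 58 abundant ones had a lower ratio than miR-7-5p. Both plasma libraries are set against the same control library, so the 2 ratios to control are not independent.

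miR-3529-3p was 1.10-fold lower after 5 min than in control (1.07 to 1.13), a log2 ratio of -0.14 (-0.18 to -0.10). After 3 min it was 1.12-fold lower (1.09 to 1.15), a log2 ratio of -0.17 (-0.20 to -0.13). The 5 min ratio lay near the middle of the abundant miRNAs, with 25 of the 58 lower than it and a median of -0.11. Between 5 min and 3 min the log2 ratio was 0.03, with an interval of -0.01 to 0.07 that included 0, and its sign turned in 2 of 7 scalings. Neither exposure brought miR-3529-3p to 1.5-fold under any of the 7 scalings.

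**Figure D2:**
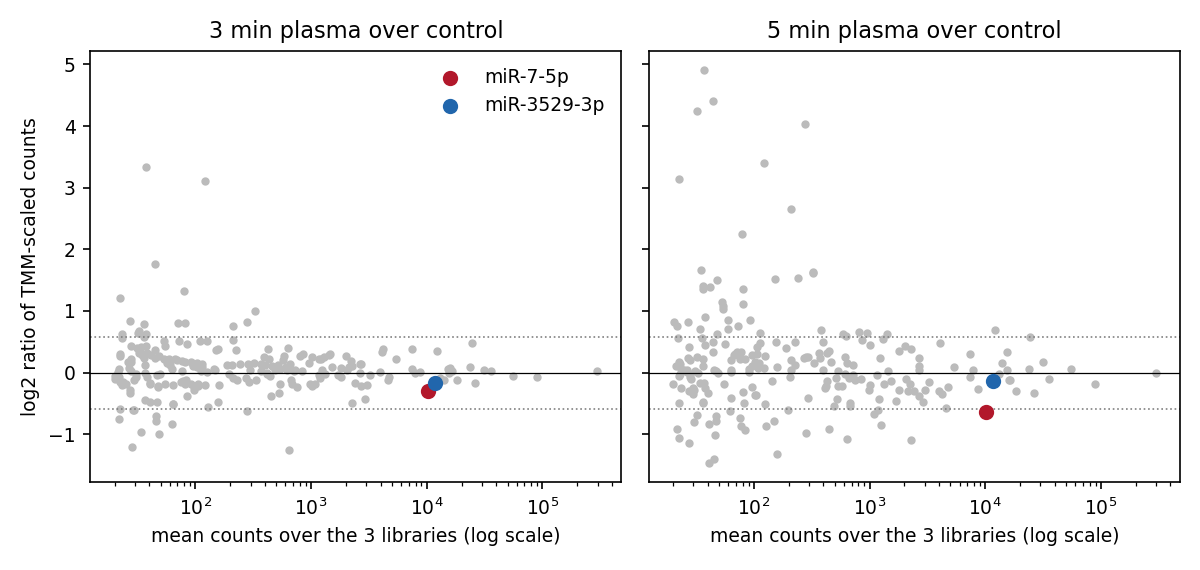
Log2 ratio of TMM-scaled counts to control against mean counts (log axis) for the 231 measured miRNAs (grey), with miR-7-5p in red and miR-3529-3p in blue; dotted lines mark 1.5-fold. Each point compares 1 plasma library with 1 control library. After 5 min miR-7-5p lies at -0.64, below the lower dotted line, and miR-3529-3p at -0.14; after 3 min they lie at -0.30 and -0.17.

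The abundance neighbours in control show the range that miRNAs of this level covered. The 3 next above miR-3529-3p in control counts were miR-24-3p, miR-9-5p and miR-140-3p, with 5 min log2 ratios of -0.02, 0.15 and 0.33. The 3 next below miR-7-5p were miR-29a-3p, let-7b-5p and miR-191-5p, with 0.69, -0.27 and 0.04. miR-7-5p was lower than all 6, and miR-3529-3p was within their range. After 3 min the 6 ranged from -0.12 for miR-9-5p to 0.35 for miR-29a-3p, and both miR-7-5p and miR-3529-3p were below that range.

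The balance between the antisense pair needs no scaling between libraries, because both entries were counted in the same library. miR-7-5p made up 49.2% of the pair's counts in control (48.6 to 49.8). Its share was 46.8% after 3 min (46.2 to 47.5), and after 5 min it was 40.6% (39.8 to 41.5). The odds of miR-7-5p against miR-3529-3p were 0.71 times those of control after 5 min (0.678 to 0.736) and 0.909 times after 3 min (0.878 to 0.941). After 5 min they were 0.777 times those after 3 min (0.744 to 0.812). The pair as counted therefore did not move as 1 quantity, and these differences exceeded counting error. Whether they exceed the spread between cultures cannot be told with 1 library per group. Summed, the pair took 2.800% of the control library, 2.36% after 3 min and 2.19% after 5 min.

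Other pairs with complementary sequences, called antisense here, give the comparison. Among listed miRNAs with a sequence, 15 pairs were complementary over at least 15 unbroken bases and had at least 1 measured member. They were found by sequence alone, without regard to position or strand. By name, miR-374b-5p with miR-374b-3p and miR-374c-3p with miR-374c-5p are arms of the same hairpin. Some pairs share a member, so the 15 are not independent of each other. The odds after 5 min against control had an interval that excluded 1 in 4 of the 15, the pair of miR-7-5p and miR-3529-3p included. miR-24-3p with miR-3074-5p was the next most abundant, and miR-24-3p took 92.4% of its pair in control, 92.95% after 3 min and 93.2% after 5 min. For miR-338-5p with miR-3065-3p the first-named share was 94.6%, 94.1% and 94.2%. For miR-374b-5p with miR-374c-3p it was 51.8%, 53.5% and 48.5%, with 5 min odds of 0.877 (0.77 to 0.998). miR-423-3p with miR-3184-5p had 59.7%, 55.7% and 59.7%, and miR-24-2-5p with miR-3074-3p had 65.4%, 62.6% and 65.1%. Of these 6 named pairs, the miR-7 pair had the 5 min odds farthest from 1. Among the 15, however, 3 less abundant pairs lay farther, 1 of them with an interval that excluded 1. The others, miR-374b-5p with miR-374b-3p and miR-374c-5p with miR-374b-3p, share a member. That member, miR-374b-3p, had 19 counts in control, 13 after 3 min and 7 after 5 min. After 3 min the interval also excluded 1 in 4 of the 15. The 3 min odds of miR-423-3p against miR-3184-5p, 0.848 (0.729 to 0.986), and of miR-24-2-5p against miR-3074-3p, 0.885 (0.732 to 1.07), lay farther from 1 than the 0.909 of the miR-7 pair. With these counted, most of the other pairs among the 15 lay farther from 1 than the miR-7 pair after 3 min.

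In 4 of the 15 pairs both sequences were reverse complements over their full length, and in these the counts were divided almost evenly in control. The first-named share was 49.2% for miR-7-5p with miR-3529-3p and 51.8% (49.6 to 54.01) for miR-374b-5p with miR-374c-3p. It was 52.6% (48.2 to 56.9) for miR-103b with miR-103a-3p and 47.05% (42.4 to 51.7) for miR-3184-3p with miR-423-5p. These last 2 pairs were named after their values were seen. Over all 15 pairs, these 4 included, the median share of the first-named member was 76.0%. A near-even division was not confined to the full-length pairs. In control, miR-3065-5p held 47.5% (37.3 to 57.8) of its pair with miR-338-3p, and miR-423-3p held 59.7% of its pair with miR-3184-5p. Except in the miR-7 pair, the member with the higher mean count was named first, which by itself raises that share. After 3 min the 3 other full-length pairs were at 53.5%, 52.03% (47.3 to 56.8) and 53.9% (49.5 to 58.2), and the miR-7 pair at 46.8%. The 3 min odds of miR-3184-3p against miR-423-5p were 1.32 times those of control (1.02 to 1.71), farther from 1 than those of the miR-7 pair. After 5 min the 3 other full-length pairs were at 48.5%, 51.2% (45.8 to 56.5) and 48.9% (42.8 to 55.04), and the miR-7 pair at 40.6%. The part of strand-blind counting in the even division was not tested.

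**Figure D3:**
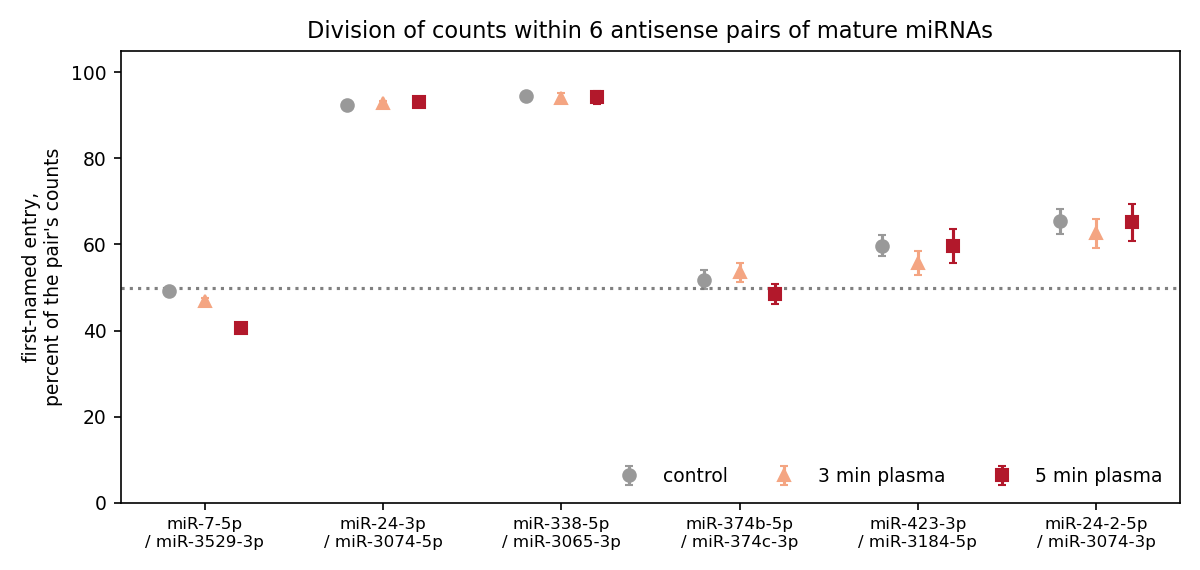
Percent of each antisense pair's counts that belonged to the first-named miRNA, in control (grey circles), 3 min plasma (orange triangles) and 5 min plasma (red squares), for the 6 pairs with the most control counts; bars are exact 95% counting intervals and the dotted line is 50%. The pair of miR-7-5p and miR-3529-3p is at 49.2%, 46.8% and 40.6%, while miR-24-3p and miR-338-5p stay above 92% of their pairs in every library.

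The other arms of these hairpins were scarce. They are shown because they stand opposite the abundant arms and would be the other product of each hairpin, again with the seed in capitals.
miR-7-1-3p: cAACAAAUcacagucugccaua
miR-7-2-3p: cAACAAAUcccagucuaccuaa
miR-3529-5p: aGGUAGACugggauuuguuguu
miR-7-1-3p and miR-7-2-3p share the seed AACAAAU and differ by an edit distance of 4. miR-3529-5p is complementary to miR-7-2-3p over 20 unbroken bases. It shares its seed with miR-379-5p, which had no count in control and 2 after either exposure.

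miR-7-1-3p, the 3p arm of MIR7-1, had 23 counts in control, 31 after 3 min and 15 after 5 min. It was 0.159% (0.101 to 0.239) of its sum with miR-7-5p in control, 0.289% (0.196 to 0.41) after 3 min, and 0.273% (0.153 to 0.449) after 5 min. Its log2 ratio to control was 0.14 after 5 min (-0.91 to 1.14) and 0.56 after 3 min (-0.27 to 1.40). Neither differed from 0 beyond counting error. The 5 min interval included the log2 ratio of miR-7-5p, so at the depth of that library a difference of that size was not detectable. The 3 min interval lay narrowly above the -0.30 of miR-7-5p, on 31 counts after 3 min and 23 in control. The odds of miR-7-1-3p against miR-7-5p were 1.71 times those of control after 5 min (0.83 to 3.43) and 1.81 times after 3 min (1.02 to 3.26).

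miR-7-2-3p and miR-3529-5p, the arms opposite miR-7-5p and miR-3529-3p at chromosome 15, had 0 counts in every library. A count of 0 allows up to 2.87 CPM in control, 3.10 CPM after 3 min and 4.87 CPM after 5 min, taking 3 counts as the floor. Of the 3p arms listed for the miR-7 hairpins, miR-7-1-3p was therefore the 1 with counts. miR-1179, whose hairpin MIR1179 ends 3628 bases before MIR7-2 on the same strand, was likewise at 0 in all 3 libraries.

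Measured fellow repressors of the miR-7 targets lay on both sides of control after 5 min. This held for those of EGFR and for those of IGF1R, IRS1 or MTOR. miR-671-5p, which cleaves the miR-7 sponge CDR1as in mammals, was below the count minimum with 19 counts in control, 12 after 3 min and 15 after 5 min. Of 8 miRNAs listed as repressors of EGFR beside miR-7-5p, 4 were measured, 1 reached 1.5-fold below control after 5 min and none reached it above control, where 11.7% and 17.3% of all measured miRNAs did. Their median 5 min log2 ratio was 0.11, against 0.05 over all measured miRNAs. miR-128-3p was 1.52-fold lower, with 564 counts after 5 min and 1444 in control, while miR-146a-5p, which also acts in NF-kB signalling, was 1.46-fold higher, with 1139 counts after 5 min and 1319 in control. miR-27a-3p and miR-27b-3p had log2 ratios of 0.05 and 0.16. After 3 min none of the 4 reached 1.5-fold, against 5.19% of all measured miRNAs on the lower side and 6.93% on the higher side, and their median was 0.13 against 0.05 over all.

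Of 7 miRNAs listed as repressors of IGF1R, IRS1 or MTOR, 4 were measured, and 1 was at least 1.5-fold lower after 5 min, against 11.7% of all measured miRNAs. That was miR-139-5p, with 14 counts after 5 min and 38 in control and a log2 ratio of -0.69 whose interval, -1.69 to 0.23, included 0. miR-99a-5p had a log2 ratio of -0.34 (-0.36 to -0.31), miR-100-5p -0.23 (-0.29 to -0.16) and miR-126-3p 0.25 (-0.00 to 0.50). The list's median was -0.28 after 5 min and 0.03 after 3 min, when none reached 1.5-fold, against 5.19% lower and 6.93% higher of all measured miRNAs. Over all measured miRNAs the median was 0.05 at both. The members of these lists were chosen with earlier results of these data known.

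Among the abundant miRNAs, the ones whose pair of log2 ratios to control lay nearest to that of miR-7-5p were miR-27a-5p, miR-99b-5p, miR-340-5p, miR-744-5p and miR-151a-3p. The likeness is the straight-line distance over the 2 ratios, among 57 other miRNAs, and rests on 3 libraries. The distances were 0.13, 0.20, 0.21, 0.28 and 0.30 log2 units. miR-27a-5p had 1491 counts in control, 1207 after 3 min and 559 after 5 min, and miR-99b-5p had 6129, 5199 and 2437 in that order. miR-3529-3p was 0.52 log2 units from miR-7-5p, farther than all 5. Nearest to miR-3529-3p were miR-3074-5p (0.08), let-7i-5p (0.11), miR-100-5p (0.13), miR-25-3p (0.13) and miR-24-3p (0.14), all within 0.23 of 0 on the log2 scale at both exposures.

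Scaling moved the size of the ratios. It multiplies both members of the pair by the same factor, so it could not change their order. Over 7 scalings miR-7-5p was 1.55-fold to 1.80-fold lower after 5 min than in control, and 1.23-fold to 1.298-fold lower after 3 min. Over the same 7, miR-3529-3p was 1.09-fold to 1.27-fold lower after 5 min and 1.12-fold to 1.18-fold lower after 3 min. The scalings that used all listed miRNAs gave the larger differences. They also moved the median 5 min log2 ratio of measured miRNAs from 0.05 to -0.16 with DESeq2 size factors and to -0.12 with TMM.

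**Figure D4:**
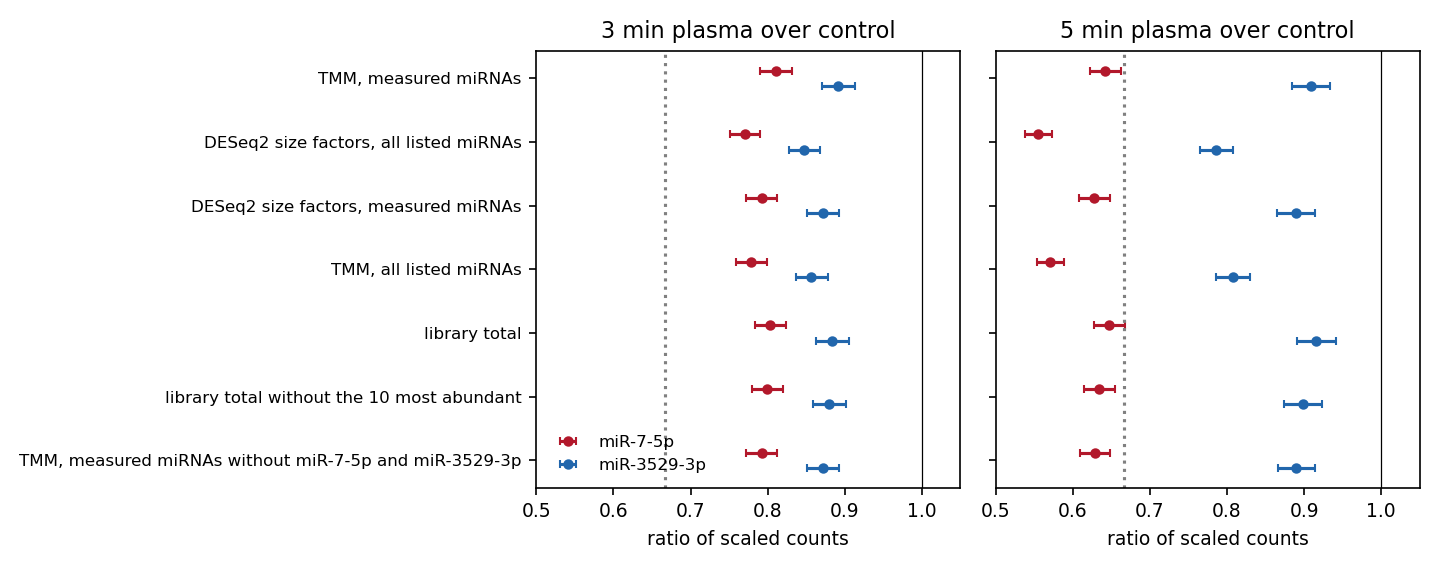
Ratio of scaled counts, 3 min plasma over control (left) and 5 min plasma over control (right), for miR-7-5p (red) and miR-3529-3p (blue) under 7 scalings of the libraries; bars are exact 95% counting intervals, the solid line is a ratio of 1 and the dotted line 1.5-fold lower. All points lie below 1, and miR-7-5p passes the dotted line after 5 min under all 7 scalings.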

How the data were processed

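Whole-number read counts per mature miRNA were taken as deposited, 1 library per group and 2588 entries each. The tools named in the submitters' processing notes are Bowtie2, bedtools and edgeR, without version or role. Per the labels' protocols, Trizol RNA and a NEBNext small-RNA kit were used. Not given in the sources used here were the build, the miRNA annotation, strand use and the treatment of reads with several matches. No molecular identifiers are recorded.

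Library totals were scaled by TMM factors (edgeR 4.0.16, R 4.3.3) over the 231 miRNAs averaging 20 counts or more. Ratios have Clopper-Pearson intervals from the binomial split of counts, and shares Clopper-Pearson intervals (scipy 1.17.1, Python 3.11.15). Odds ratios are conditional with exact intervals. The ratio step was checked on simulated counts that held counting error only. That check could not cover the spread between cultures or reads shared by antisense entries. DESeq2 1.42.0 supplied alternative size factors. Depth was 615645 to 1045482 counts.

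Sequences are from RefSeq (2281 of 2588 names matched), hairpin positions from GENCODE on GRCh38. Named miRNAs were the pair, the other arms of its hairpins, MIR1179 and miR-671-5p, 2 target-sharing lists, 2 marker lists, the 6 most abundant antisense pairs, 3 abundance neighbours on each side, and the 5 most alike. Lists and members were chosen with earlier results of these data known.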

Additional observations from a re-analysis of the deposited data

How the results depend on the processing

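No paired analysis was possible because each group was 1 library. Below, values are in the order 3 min over control, 5 min over control, 5 min over 3 min. With DESeq2 size factors over all listed miRNAs the ratios of miR-7-5p were 0.770, 0.555 and 0.721 and those of miR-3529-3p 0.847, 0.786 and 0.928. With TMM over all listed miRNAs they were 0.779, 0.571 and 0.733 for miR-7-5p and 0.857, 0.808 and 0.943 for miR-3529-3p. Both entries summed gave 0.852, 0.777 and 0.913. The other 4 scalings stayed within the counting intervals. The shares and odds within the pair moved by less than counting error when all listed arms were used. The added arms held only 23 counts in control, 31 after 3 min and 15 after 5 min, so little movement was possible.

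Counts of miRNAs past a fold depended on the count minimum. With no minimum and a floor of 3 counts, those at least 1.5-fold higher were 56, 127 and 121, and lower 44, 48 and 45. At 2-fold these were 21, 94 and 87 higher and 16, 21 and 10 lower. With a mean of at least 1000 counts, 0, 2 and 0 were 1.5-fold higher and 0, 5 and 4 lower; at 2-fold 0, 0 and 0 were higher and 0, 1 and 0 lower. DESeq2 size factors over all listed miRNAs gave 42 (5 min over control) and 35 (5 min over 3 min) at least 1.5-fold lower, and 4, 17 and 5 at least 2-fold lower. TMM over all listed miRNAs gave 31 at least 1.5-fold lower (5 min over 3 min), and 4, 16 and 4 at least 2-fold lower. The cause was not tested. Scarce arms such as miR-7-1-3p are limited by depth.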

Other observations

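The scarcest of the 15 antisense pairs, named after its values were seen, also differed between libraries in its division of counts. miR-3065-5p had 47 counts in control, 58 after 3 min and 59 after 5 min, and miR-338-3p had 52, 35 and 22 in that order, so that the share of miR-3065-5p was 47.5%, 62.4% and 72.8%. Its odds after 5 min were 2.95 times those of control (1.52 to 5.87). The direction depends on which member is named first. With miR-3529-3p named first, the 5 min odds of the miR-7 pair were 1.42 times those of control (1.36 to 1.48), also above 1. Length and base composition were the same in miR-7-5p and miR-3529-3p. The 34 other measured miRNAs within 5 percentage points of their G and C content had a median 5 min log2 ratio of 0.06, with quartiles of -0.13 and 0.44.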
